A study of Mus musculus with 12 samples.

Results

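Heat shock proteins are molecular chaperones, which help other proteins to fold, keep unfolded ones from clumping and hand damaged ones on for degradation. Some are made at all times, and others are made mainly after heat, oxidative or proteotoxic stress, when heat shock factor 1 binds heat shock elements in their promoters. Immune cells and barrier epithelia both rely on them, and tissue dissociation is a known trigger of the inducible members.

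The genes described are 10 mouse heat shock chaperones chosen by symbol, out of 27588 genes that could be joined across the deposited libraries. All 10 were found and all 10 passed the filter on low counts, among 13945 genes tested. They comprise the Hsp90 proteins Hsp90aa1 and Hsp90ab1, the Hsp70 proteins Hspa1a, Hspa1b and Hspa8, their helpers Dnajb1 and Hsph1, the small heat shock protein Hspb1, and the chaperonin pair Hspd1 and Hspe1. The first 8 act in the cytosol, whereas Hspd1 and Hspe1 encode Hsp60 and Hsp10, which are known as the chaperonin and co-chaperonin of the mitochondrial matrix.

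RNA was sequenced from 12 libraries of male C57BL/6J mice, labelled as monocytes of the meninges, in 4 groups of 3. Mice of 3 groups were restrained for 18 days and then given psilocybin, MDMA or vehicle, and the last group was an unstressed control, for which the labels name no treatment. Tissue of the stressed mice was taken 24 h after dosing, cells were isolated with a magnetic monocyte kit, and libraries were made from 5 ng of RNA. Psilocybin is the prodrug of the serotonin receptor agonist psilocin, and MDMA is an amphetamine that releases serotonin. Doses are not given in the labels. The labels do not say whether the 3 libraries of a group come from separate animals, so the p-values measure the spread between libraries, which may be technical.

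The libraries held between 807725 counts (vehicle 2) and 5136953 counts (MDMA 3). Of 12228 genes with a mean of at least 5 CPM (read counts divided by the library total and scaled to a common size), 2752, 725 and 3336 had no count in vehicle libraries 1, 2 and 3, against 17 to 398 in each of the other 9 libraries. Markers of choroid plexus epithelium, the tissue that secretes cerebrospinal fluid, summed to 63700–116000 CPM over 7 genes in the psilocybin libraries, 22300–43900 CPM in the MDMA libraries, 12300–126000 CPM in the vehicle libraries and 15100–39700 CPM in the unstressed libraries. The 7 markers of classical monocytes reached 103–440 CPM with psilocybin, 326–1120 CPM with MDMA, 51.6–229 CPM with vehicle and 179–313 CPM in unstressed libraries. These levels go against a label of pure monocytes, and vehicle library 1 had no count of Ly6c2 or Plac8 and vehicle library 3 none of Plac8 or Vcan. The 8 neutrophil markers summed to 95.3–960 CPM with psilocybin, 528–2440 CPM with MDMA and 91.1–184 CPM with vehicle, all above the 22.6–44.2 CPM of the unstressed libraries. Fibroblast marker sums were 1840–3820 CPM with psilocybin, 6360–13300 CPM with MDMA, 682–5640 CPM with vehicle and 3550–6220 CPM in unstressed libraries. The part of these other cells in the chaperone values below was not tested. In such bulk samples, fewer cells of a type and less RNA per cell cannot be told apart.

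The stressed and unstressed libraries were counted on different annotations, Ensembl for the stressed and RefSeq for the unstressed ones. Among the 10 genes, Hspa1b, Dnajb1 and Hspd1 have nearly the same exons in both. For the others, the bases counted for the gene alone differ, from 1031 (Ensembl) against 903 (RefSeq) for Hspb1 to 1362 against 698 for Hspe1 and 4039 against 2104 for Hspa8. A difference from the unstressed group and a difference in counted bases therefore cannot be told apart for those 7 genes. For all 10 genes, the counting command of the stressed libraries is not given. Any other difference in how the stressed and unstressed libraries were handled cannot be told apart from stress for any of the 10.

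A heat shock element is built from the unit GAA and its complement TTC in alternation. Pairs of neighbouring units (GAANNTTC or TTCNNGAA, each of which reads the same on both strands) and runs of 3 units (GAANNTTCNNGAA or TTCNNGAANNTTC, one the reverse complement of the other) were searched in the 250 bases before each annotated start site in the RefSeq promoter table of GRCm38.p6. Every match to 3 units also contains matches to 2. Promoters of 7 of the 10 genes are in that table, in 10 windows. Matches to 2 units lay upstream of 6 of the 7 (Hspa1a, Hspa1b, Hspb1, Hsph1, Hspd1 and Hspe1), and 12.8% of all 32851 windows held one. Matches to 3 units lay upstream of 2 genes, Hspd1 and Hspe1, and 0.466% of all windows held one. Both shares are per window, whereas a gene is counted here if any of its windows holds a match. Hspd1 and Hspe1 are transcribed away from each other from 1 shared region, so theirs are the same letters. A match is a description of these letters and not a bound site.

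The following stretches, from RefSeq on GRCm38.p6 and written 5′ to 3′ on the strand of each gene, are shown because they carry the matches of the inducible Hsp70 pair, of Hspb1 and of the chaperonin pair. Capitals mark the GAA and TTC units of each match. The first 3 run from 150 bases to 1 base before the start site, at chr17:34972157-34972306 (minus strand) for Hspa1a, chr17:34959239-34959388 (minus strand) for Hspa1b and chr5:135887769-135887918 (plus strand) for Hspb1. The last runs from 95 to 66 bases before the Hspe1 start site, at chr1:55088053-55088082 (plus strand).
Hspa1a: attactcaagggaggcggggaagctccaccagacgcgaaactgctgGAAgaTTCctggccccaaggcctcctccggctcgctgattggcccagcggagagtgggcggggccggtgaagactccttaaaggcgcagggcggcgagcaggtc
Hspa1b: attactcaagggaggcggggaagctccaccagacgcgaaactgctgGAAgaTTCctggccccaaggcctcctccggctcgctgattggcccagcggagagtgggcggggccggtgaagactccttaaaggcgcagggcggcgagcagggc
Hspb1: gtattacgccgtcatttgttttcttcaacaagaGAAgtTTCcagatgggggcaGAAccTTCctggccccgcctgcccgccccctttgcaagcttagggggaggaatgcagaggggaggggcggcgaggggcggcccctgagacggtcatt
Hspe1: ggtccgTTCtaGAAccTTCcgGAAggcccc

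The Hspa1a and Hspa1b stretches were identical at 149 of 150 positions (99.3%). Hspb1 holds 2 separate matches, starting 117 and 97 bases before its start site, and the chaperonin region holds 4 alternating units without a gap.

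**Figure D1:**
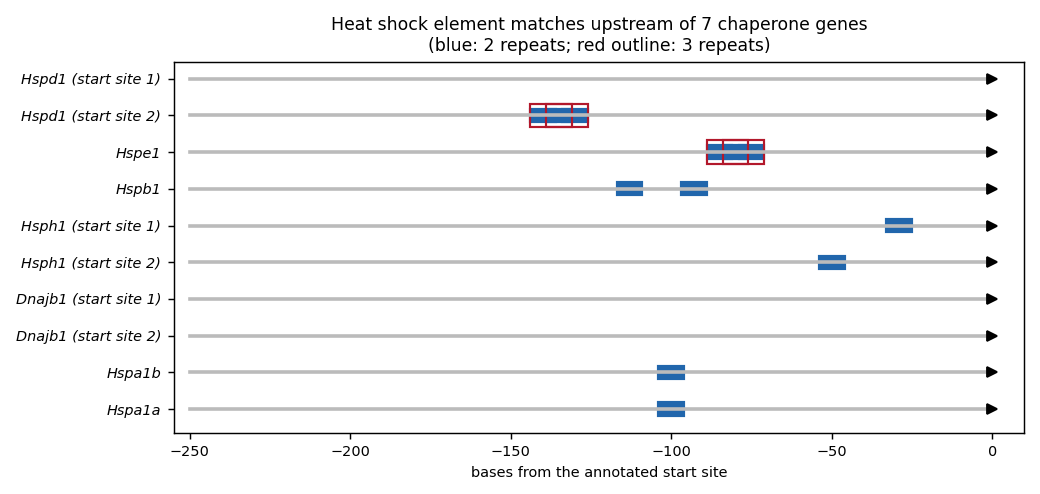
Positions of heat shock element matches in the 250 bases before each annotated start site of the 7 genes in the promoter table (x axis, bases from the start site, marked by the arrowhead). Blue boxes mark 2 units and red outlines 3 units, which occur upstream of Hspe1 and of 1 Hspd1 start site. Neither Dnajb1 window holds a match.

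Per kilobase of exon, the constitutive chaperones led. Hsp90ab1 averaged 291 ± 64 CPM per kb and Hspa8 231 ± 54.8 CPM per kb (SD over 12 libraries), and Hsp90ab1 was the higher in 9 of the 12 libraries. Hspa8 exceeded Dnajb1, the next gene at 103 ± 37 CPM per kb, in 12 of 12 libraries. The following neighbours did not separate beyond their spread: Hsp90aa1 averaged 85.3 ± 31.4, Hspd1 68.5 ± 19.8, Hspa1a 45.7 ± 21.6, Hspb1 39.4 ± 27.6, Hsph1 34.6 ± 12.9 and Hspe1 27.1 ± 14.8 CPM per kb. Hspa1b was last at 1.84 ± 1.26 CPM per kb and lay below Hspe1 in 12 of 12 libraries. Hspa8 and Hsp90ab1 together made up 51–70.6% of the summed CPM of the 10 genes in a library.

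Summed over the 10 genes, the level was 3183 ± 213 CPM in psilocybin libraries, 2999 ± 171 CPM in MDMA libraries, 2956 ± 662 CPM in vehicle libraries and 2585 ± 29.8 CPM in unstressed libraries (SD, n = 3 each). Vehicle library 3 had the lowest sum, 2195 CPM, and the other 8 stressed libraries lay between 2886 and 3401 CPM, above the 2564–2619 CPM of the unstressed libraries. Per kilobase of each annotation the sum was 965 ± 82.2 CPM per kb with psilocybin, 897 ± 82.7 with MDMA, 847 ± 186 with vehicle and 1000 ± 45 in unstressed libraries (SD, n = 3 each), so the order of stressed and unstressed groups turned with the counted length.

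**Figure D2:**
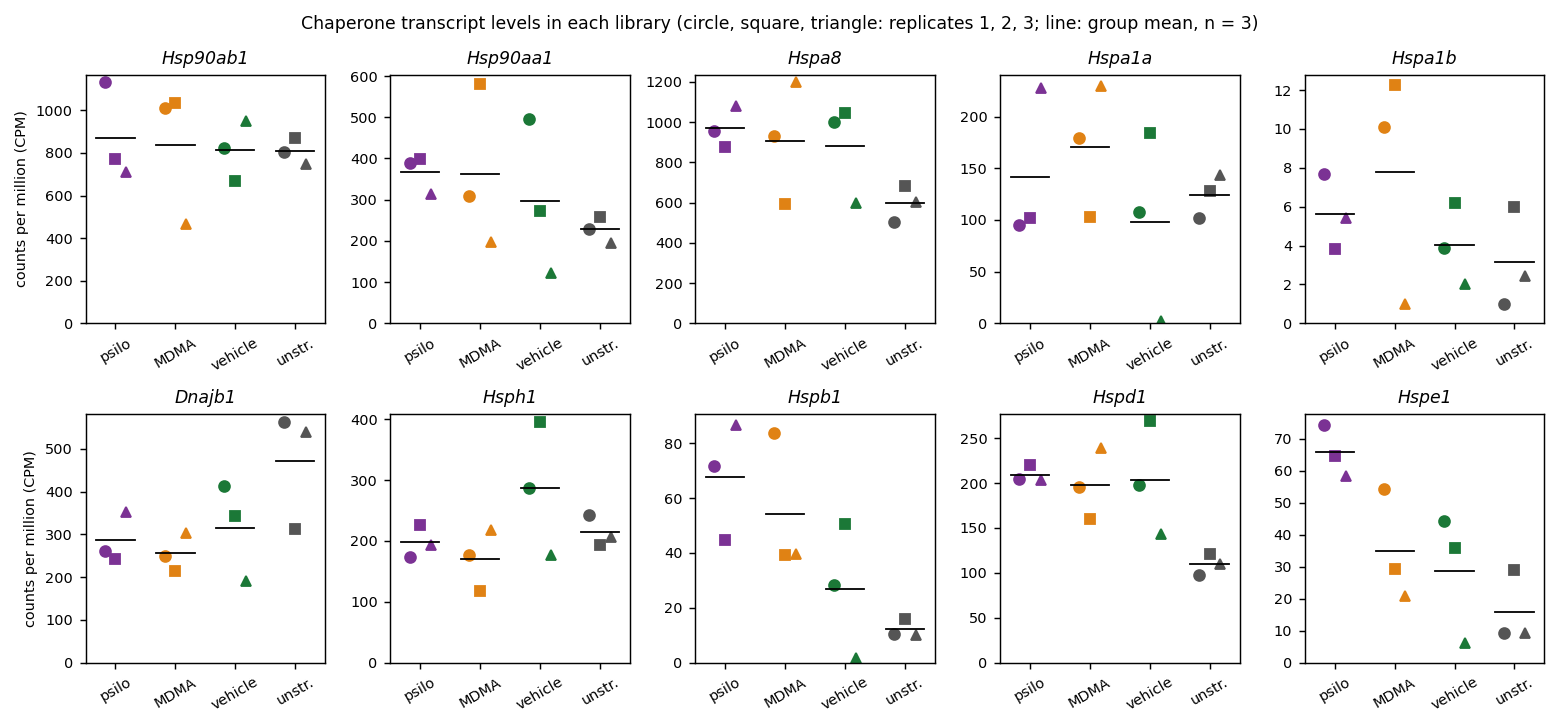
CPM (y axis, from 0) of each of the 10 genes in the 3 libraries of each group, with the group mean as a line; circles, squares and triangles are replicates 1, 2 and 3. In CPM, all 9 stressed libraries lie above the 3 unstressed ones for Hspd1 alone, and vehicle library 3 is the lowest of all 12 for Hspa1a, Hspb1, Hspe1, Hsp90aa1 and Dnajb1.

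None of the 10 genes passed an adjusted p of 0.05 in any of the 6 pairwise comparisons or in the test of any difference among the 4 groups, when p-values of edgeR's quasi-likelihood test were Benjamini-Hochberg adjusted over the 13945 genes. Of all genes tested, 0.0789% passed for psilocybin against unstressed, 0.0789% for MDMA against unstressed, 3.36% for vehicle against unstressed, 0.0143% for psilocybin against vehicle, 0.674% for MDMA against vehicle and 0% for psilocybin against MDMA, and 0.43% passed for any difference. At an unadjusted p under 0.05 there were 3 of the 10 genes for psilocybin against unstressed (Hspb1, Hspe1, Hspd1), 2 for MDMA against unstressed (Hspb1, Dnajb1), 1 for vehicle against unstressed (Hspd1), 0 for psilocybin against vehicle, 1 for MDMA against vehicle (Hsph1), 0 for psilocybin against MDMA and 0 for any difference. Of all 13945 genes, 881, 691, 2582, 2221, 2334, 81 and 1996 had an unadjusted edgeR p under 0.05, in the same order. DESeq2 called 1 of the 10 for vehicle against unstressed (Hspd1), where it called 1749 of all genes tested. It called 1 for MDMA against vehicle (Hsph1), where it called 1337, and 1 for any difference (Hspd1), where it called 1422. In the other 4 tests it called 0 of the 10. Its counts over all genes there were 1061 for psilocybin against vehicle, and 244 and 218 for psilocybin and MDMA against unstressed. For psilocybin against MDMA the count was 0.

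The 3 comparisons with the unstressed group share its libraries, and the 2 comparisons with vehicle share the vehicle libraries. For psilocybin against unstressed, the median log2 difference of the 10 genes was 0.71, beside 0.016 over all genes tested, and 8 of the 10 differences were positive. The median was 0.61 for MDMA against unstressed, beside 0.038 over all genes, and 0.52 for vehicle against unstressed, beside −0.18 over all genes, each with 8 positive. These log2 values take no account of counted length, and per kilobase of each annotation the group mean exceeded the unstressed one for 6 of the 10 genes with psilocybin, 6 with MDMA and 3 with vehicle. No share over all genes is given per kilobase. That scaling assumes reads over all annotated exon bases, which was not tested. The median log2 difference of the 10 genes was 0.10 for psilocybin against vehicle (all genes 0.31), −0.0058 for MDMA against vehicle (all genes 0.24) and 0.16 for psilocybin against MDMA (all genes 0.018). With DESeq2 size factors in place of TMM, the all-gene medians of the 3 comparisons that hold vehicle were 0.0018 for vehicle against unstressed, 0.12 for psilocybin against vehicle and 0.10 for MDMA against vehicle.

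**Figure D3:**
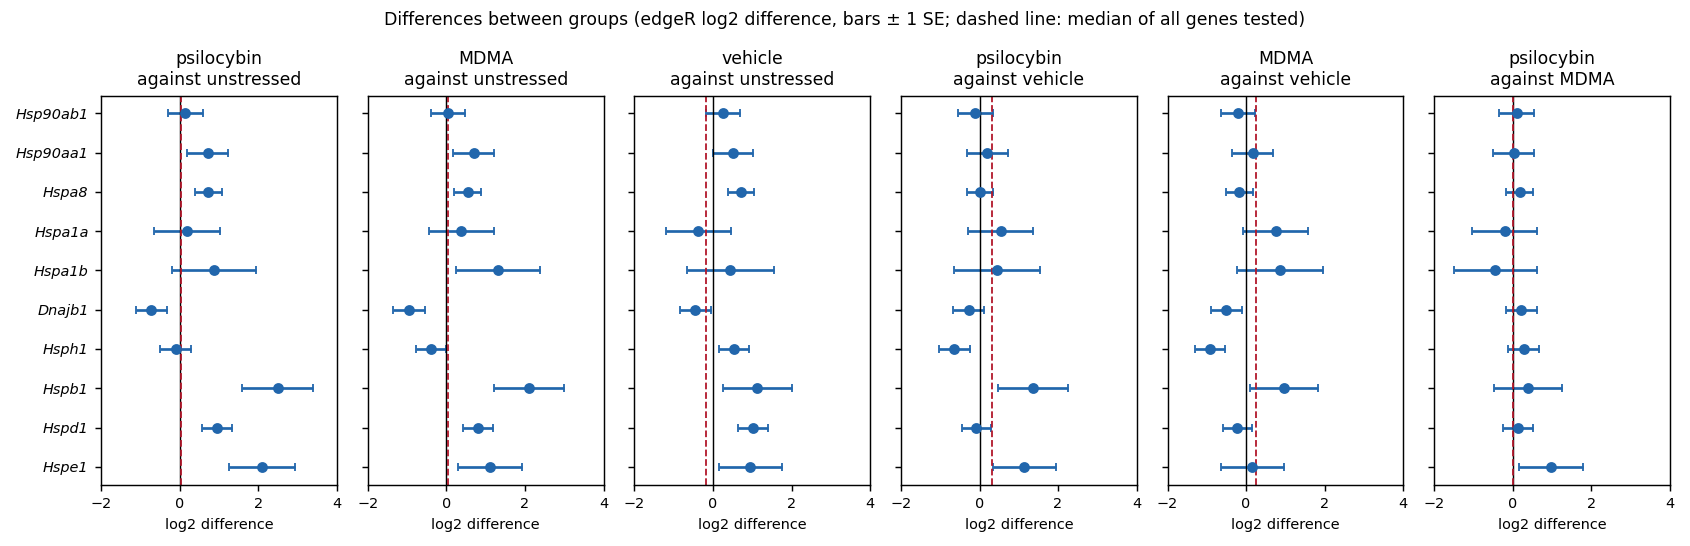
Log2 difference (x axis, edgeR) of each gene in the 6 comparisons, first-named group minus second-named group, with bars of 1 SE; the dashed line is the median of all genes tested. Hspb1 and Hspe1 have the largest positive values for psilocybin against unstressed (2.49 and 2.09), Dnajb1 is negative in all 3 comparisons with unstressed, and none passed the adjusted test.

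The Hsp90 proteins mature and hold signalling proteins such as kinases and steroid receptors. Hsp90ab1, the constitutive form, was at 1130, 773 and 709 CPM with psilocybin, 1010, 1040 and 465 CPM with MDMA, 821, 669 and 952 CPM with vehicle and 807, 872 and 750 CPM in unstressed libraries. The groups overlapped throughout, and the log2 differences were small beside their errors (psilocybin against unstressed 0.14 ± 0.44 SE, vehicle against unstressed 0.25 ± 0.44 SE). Per kilobase of each annotation, Hsp90ab1 averaged 291 ± 76.6 CPM per kb with psilocybin, 279 ± 107 with MDMA, 271 ± 47.3 with vehicle and 323 ± 24.2 in unstressed libraries (SD, n = 3 each), so the direction turned there too. Hsp90aa1, the stress-inducible form, was at 390, 399 and 313 CPM with psilocybin, 308, 581 and 197 CPM with MDMA, 495, 274 and 122 CPM with vehicle and 230, 258 and 196 CPM in unstressed libraries. All 3 psilocybin libraries lay above the unstressed ones. MDMA library 3 lay within the unstressed range and the other MDMA libraries above it, whereas the vehicle libraries ran from below that range to above it. The log2 difference for psilocybin against unstressed was 0.71 ± 0.52 SE (edgeR adjusted p = 0.967). Per kilobase, the ratio of Hsp90aa1 to Hsp90ab1 was 0.331 ± 0.0663 with psilocybin, 0.328 ± 0.0977 with MDMA, 0.29 ± 0.182 with vehicle and 0.247 ± 0.0157 in unstressed libraries (SD, n = 3 each).

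Hspa8 encodes Hsc70, the constitutive cytosolic Hsp70, which also strips clathrin from vesicles. It was at 957, 876 and 1080 CPM with psilocybin, 929, 594 and 1200 CPM with MDMA, 1000, 1050 and 598 CPM with vehicle and 501, 683 and 604 CPM in unstressed libraries. The psilocybin libraries did not overlap the unstressed ones, and 1 MDMA and 1 vehicle library fell within the unstressed range. The log2 differences from unstressed were 0.72 ± 0.34 with psilocybin, 0.54 ± 0.34 with MDMA and 0.71 ± 0.34 with vehicle (SE; edgeR adjusted p = 0.804, 0.999 and 0.289). Hspa8 has 4039 bases of its own in the Ensembl annotation and 2104 in the RefSeq one, and small nucleolar RNA genes such as Snord14c lie within its exons. Per kilobase of exon in each annotation (4301 bases in Ensembl, 2104 in RefSeq) the direction turned. Hspa8 averaged 226 ± 23.9 CPM per kb with psilocybin, 211 ± 70.8 with MDMA and 205 ± 57.5 with vehicle, against 283 ± 43.4 in unstressed libraries (SD, n = 3 each).

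Hspa1a encodes the inducible Hsp70, the classic heat-induced chaperone. It was at 95, 102 and 228 CPM with psilocybin, 180, 102 and 229 CPM with MDMA, 107, 184 and 2.56 CPM with vehicle and 102, 128 and 143 CPM in unstressed libraries. Vehicle library 3 stood apart: its 2.56 CPM came from 5 counts (95% Clopper-Pearson interval 0.831–5.97 CPM, which covers counting error only), and the lowest of the other 11 libraries was 95 CPM. For vehicle against unstressed the log2 difference was −0.37 ± 0.83 SE with that library and 0.22 ± 0.45 SE without it (edgeR adjusted p = 0.864 and 0.789). For psilocybin against vehicle it was 0.54 ± 0.83 SE with that library and −0.014 ± 0.45 SE without it (edgeR adjusted p = 0.824 and 0.997).

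Hspa1b, the neighbouring copy, held 0.973 to 12.2 CPM over the 12 libraries, on 3 to 36 counts, and all groups overlapped. The transcripts of the pair are near copies: 58.8% of the 50-base words of Hspa1a occur in Hspa1b, and 62.3% of those of Hspa1b occur in Hspa1a, so the split of reads between them is uncertain. Summed to 1 gene, the log2 difference was 0.20 ± 0.76 for psilocybin against unstressed, 0.41 ± 0.76 for MDMA against unstressed and −0.34 ± 0.77 for vehicle against unstressed (SE; edgeR adjusted p = 0.999, 0.999 and 0.864). Gm20481 overlaps 564 exon bases of Hspa1a in the Ensembl annotation.

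Dnajb1 is an Hsp40 protein that delivers clients to Hsp70 and starts its ATP cycle. It was at 261, 243 and 353 CPM with psilocybin, 249, 214 and 303 CPM with MDMA, 414, 342 and 192 CPM with vehicle and 563, 313 and 539 CPM in unstressed libraries. All 3 MDMA libraries lay below the unstressed ones, and 1 psilocybin library and 2 vehicle libraries lay within the unstressed range. The log2 differences from unstressed were −0.73 ± 0.40 with psilocybin, −0.95 ± 0.40 with MDMA and −0.45 ± 0.40 with vehicle (SE; edgeR adjusted p = 0.904, 0.878 and 0.614). No stressed library exceeded the highest unstressed one in CPM, and 6 of 9 lay below the lowest. Its exons are nearly the same in both annotations (3204 and 3227 bases).

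Hsph1 is an Hsp110 protein, a nucleotide exchange factor that resets Hsp70. It was at 174, 226 and 193 CPM with psilocybin, 177, 118 and 218 CPM with MDMA, 287, 395 and 177 CPM with vehicle and 243, 193 and 207 CPM in unstressed libraries. Vehicle libraries 1 and 2 were the highest of the 12, and vehicle library 3 lay among the drug-treated ones. The log2 difference for MDMA against vehicle was −0.92 ± 0.39 SE (edgeR adjusted p = 0.241; 0.0486 with DESeq2, and 0.0486 to 1 over 21 alternatives). For psilocybin against vehicle it was −0.64 ± 0.39 SE (edgeR adjusted p = 0.468). Hsph1 has 7266 bases of its own in the Ensembl annotation and 4423 in the RefSeq one, and per kilobase it averaged 27.2 ± 3.62 CPM per kb with psilocybin, 23.5 ± 6.98 with MDMA, 39.4 ± 15 with vehicle and 48.4 ± 5.82 in unstressed libraries (SD, n = 3 each).

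Hspb1 encodes the small heat shock protein Hsp27, which holds unfolding proteins in a refoldable state and binds actin. It was at 71.6, 44.6 and 86.5 CPM with psilocybin, 83.8, 39.2 and 39.7 CPM with MDMA, 28.4, 50.8 and 1.54 CPM with vehicle and 10.5, 16 and 9.99 CPM in unstressed libraries. Of the 9 stressed libraries, 8 lay above every unstressed one, and vehicle library 3, with 3 counts (95% Clopper-Pearson interval 0.317–4.49 CPM), lay below them. The log2 differences from unstressed were 2.49 ± 0.91 with psilocybin (5.62-fold), 2.10 ± 0.89 with MDMA (4.3-fold) and 1.13 ± 0.88 with vehicle (2.19-fold), as SE, with edgeR adjusted p = 0.563, 0.882 and 0.549. Without vehicle library 3, Hspb1 passed for psilocybin against unstressed (2.52 ± 0.51 SE, edgeR adjusted p = 0.044), where 118 of 14516 genes tested passed. Fitted on the psilocybin and unstressed libraries alone it also passed (2.50 ± 0.36 SE, edgeR adjusted p = 0.00871), where 1379 of 13371 did. Over 19 alternatives the adjusted p ran from 0.00871 to 1. Hspb1 has 1031 bases of its own in the Ensembl annotation and 903 in the RefSeq one.

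Hspd1, the chaperonin subunit that forms the folding chamber of mitochondria, was at 204, 220 and 203 CPM with psilocybin, 196, 161 and 239 CPM with MDMA, 198, 269 and 143 CPM with vehicle and 98, 121 and 110 CPM in unstressed libraries. All 9 stressed libraries lay above all 3 unstressed ones, a position shared by 0.925% of the genes tested, and by 0.574% of the 2441 tested genes whose exons are nearly the same in both annotations, of which Hspd1 is 1. Neutrophil marker sums, given above, were also higher in all 9 stressed libraries, and their part in the Hspd1 values was not tested. The log2 differences from unstressed were 0.94 ± 0.39 with psilocybin (1.92-fold), 0.80 ± 0.39 with MDMA (1.74-fold) and 1.02 ± 0.39 with vehicle (2.03-fold), as SE, with edgeR adjusted p = 0.676, 0.999 and 0.171. For vehicle against unstressed it passed without vehicle library 3 (edgeR adjusted p = 0.0493), where 970 of 14516 genes tested passed. With DESeq2 it also passed (adjusted p = 0.00414), where 1749 of 13945 did. Over 21 alternatives the adjusted p ran from 0.00414 to 0.848. Among the stressed groups its log2 differences were −0.078 for psilocybin against vehicle (95% interval −0.90 to 0.74) and −0.22 for MDMA against vehicle (95% interval −1.04 to 0.60).

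Hspe1, the lid of the same chaperonin, was at 74.3, 64.6 and 58.3 CPM with psilocybin, 54.1, 29.4 and 20.8 CPM with MDMA, 44.2, 35.9 and 6.14 CPM with vehicle and 9.16, 28.9 and 9.32 CPM in unstressed libraries. In CPM, the psilocybin libraries were the 3 highest of all 12, above every MDMA, vehicle and unstressed library. No share of all genes is given for that joint position. Per kilobase of exon, psilocybin library 3 was at 39.6 CPM per kb, close to unstressed library 2 at 37.7 CPM per kb. The log2 difference was 2.09 ± 0.83 SE for psilocybin against unstressed (4.27-fold, edgeR adjusted p = 0.638), 1.14 ± 0.81 SE for psilocybin against vehicle (edgeR adjusted p = 0.556) and 0.98 ± 0.81 SE for psilocybin against MDMA (edgeR adjusted p = 1). Hspe1 has 698 bases of its own in the RefSeq annotation and 1362 in the Ensembl one, within 768 and 1474 exon bases. Per kilobase of those exon bases it averaged 44.6 ± 5.45 CPM per kb with psilocybin, 23.6 ± 11.7 with MDMA, 19.5 ± 13.6 with vehicle and 20.6 ± 14.8 in unstressed libraries (SD, n = 3 each). The psilocybin difference was thus smaller and the vehicle one turned direction. With 1 library left out, the log2 difference for psilocybin against unstressed ran from 1.80 to 2.81, the highest without unstressed library 2 and the lowest without unstressed library 1. Per kilobase, the ratio of Hspe1 to Hspd1 was 0.564 ± 0.0762 with psilocybin, 0.326 ± 0.169 with MDMA, 0.238 ± 0.161 with vehicle and 0.463 ± 0.288 in unstressed libraries (SD, n = 3 each).

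Groups that did not overlap were counted beside the background. For psilocybin against unstressed, 5 of the 10 genes (Hspa8, Hsp90aa1, Hspb1, Hspd1, Hspe1) were higher in all psilocybin libraries, where 18.3% of all genes tested were. For MDMA against unstressed, 2 (Hspb1, Hspd1) were higher where 11.7% of all genes were, and 1 (Dnajb1) was lower where 10.7% were. For vehicle against unstressed, 1 (Hspd1) was higher where 2.77% were. None of the 10 was lower in all psilocybin libraries than in all unstressed ones, where 18.5% of genes were, in all vehicle libraries, where 17.8% were, or in all 9 stressed libraries, where 4.24% were. Per kilobase of each annotation, the genes that separated from unstressed were Hspb1, Hspd1 and Hspe1 (higher) and Hsph1 (lower) for psilocybin. For MDMA they were Hspb1 and Hspd1 (higher) and Hsph1 and Dnajb1 (lower), and for vehicle Hspd1 (higher). The shares above are in CPM, and none is given per kilobase, so these separations have no background beside them. Hspe1 was the only one of the 10 that was higher in all psilocybin libraries than in all vehicle libraries, where 20.8% of genes were, and than in all MDMA libraries, where 7.76% were. None of the 10 was lower in all psilocybin libraries than in all vehicle libraries, where 2.62% of genes were, or than in all MDMA libraries, where 8.33% were. For MDMA against vehicle none of the 10 separated, where 16.8% of genes were higher and 1.87% lower.

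Psilocybin and MDMA were compared directly at 24 h, with doses not stated. Log2 differences of the 10 genes ran from −0.44 ± 1.06 SE for Hspa1b to 0.98 ± 0.81 SE for Hspe1. The 95% intervals were −0.55 to 0.90 for Hspa8, −0.83 to 1.04 for Hsp90ab1, −0.68 to 0.97 for Hspd1 and −1.97 to 1.56 for Hspa1a. These intervals leave room for differences in either direction, and that of Hspe1 ran from −0.74 to 2.71.

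The 10 genes did not move as 1 block over the libraries. After each gene's log2 level was standardised over the 12 libraries, their mean profile was highest in vehicle library 1 (1.51) and psilocybin library 1 (1.26) and lowest in unstressed library 1 (−1.36) and vehicle library 3 (−1.35). Hspe1 was nearest to that mean profile, at a root mean square distance of 0.438 standardised units, and Dnajb1 was farthest at 1.51, beyond the median of 1.34 over 12193 other genes. The 5 other genes nearest to the mean profile were Lrpap1 (0.266), Ptgds (0.281), 1500015O10Rik (0.291), Ttr (0.294) and Mrps6 (0.308). Ttr, which encodes transthyretin and is a hallmark of choroid plexus epithelium, was at 59700, 35200 and 31300 CPM with psilocybin, 22300, 11600 and 5270 CPM with MDMA, 46600, 23800 and 1950 CPM with vehicle and 5650, 4170 and 4960 CPM in unstressed libraries. Vehicle library 1 and psilocybin library 1, highest in the chaperone profile, were also highest in the choroid plexus marker sum (126000 and 116000 CPM). Vehicle library 3, with 12300 CPM, was lowest in that sum. Unstressed library 1, lowest in the chaperone profile, held 39700 CPM of choroid plexus markers. That was above the 29700 CPM of MDMA library 2, whose profile value was 0.25. The part of this tissue in the chaperone values was not tested.

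Genes around the chaperones were counted in 8 lists. Heat shock factors and their regulator comprised 4 genes tested. Hsf1, the master activator of the response, was at 67.2, 62.3 and 58.6 CPM with psilocybin, 63.9, 30.8 and 71.6 CPM with MDMA, 75.3, 55.7 and 0 CPM with vehicle and 51.9, 47.4 and 42.6 CPM in unstressed libraries, and it passed in no comparison. Hsf1 has 7099 bases of its own in the Ensembl annotation and 2378 in the RefSeq one. Hsf4 was lower in vehicle than in unstressed libraries (edgeR adjusted p = 0.0467), with no count in the 3 vehicle libraries, where a floor of 3 counts over the group makes it at least 16-fold lower. In the other libraries it was at 4.14, 8.46 and 4.9 CPM with psilocybin, 7.01, 0.35 and 6.03 CPM with MDMA and 7.46, 7.73 and 7.33 CPM unstressed. Vehicle libraries lacked counts for many abundant genes, as given above, and the part of that in the Hsf4 value was not tested. The Hsf4 call held in 6 of 20 alternatives, with adjusted p from 0.00343 to 0.273 by edgeR or DESeq2. None of the 4 passed in the other 5 comparisons. The list medians were 0.041 for psilocybin, −0.37 for MDMA and −1.81 for vehicle against unstressed. They were 1.85 for psilocybin against vehicle, 1.17 for MDMA against vehicle and 0.51 for psilocybin against MDMA.

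Of 19 other Hsp70 family genes and co-chaperones, 1 rose and none fell in each of the 3 comparisons with unstressed, and none passed among the stressed groups. The list medians were 0.063 for psilocybin, −0.086 for MDMA and 0.37 for vehicle against unstressed. The gene was St13, which encodes Hip, an Hsp70-interacting protein. It was at 648, 1350 and 801 CPM with psilocybin, 713, 531 and 389 CPM with MDMA, 242, 433 and 300 CPM with vehicle and 45.4, 97.5 and 57.7 CPM in unstressed libraries. The log2 differences from unstressed were 3.81 ± 0.48 with psilocybin, 3.0 ± 0.47 with MDMA and 2.45 ± 0.46 with vehicle (SE; edgeR adjusted p = 0.00478, 0.0218 and 0.0295). St13 has 10305 bases of its own in the Ensembl annotation and 1622 in the RefSeq one, so counting and stress cannot be told apart here. Per kilobase of each annotation it averaged 90.6 ± 35.9 CPM per kb with psilocybin, 52.8 ± 15.8 with MDMA and 31.6 ± 9.5 with vehicle, against 41.2 ± 16.8 in unstressed libraries (SD, n = 3 each), so the vehicle difference turned direction. The call held in 17 of 19 alternatives with psilocybin (highest adjusted p 0.077, lost without unstressed library 1 or 3), in 13 of 19 with MDMA (highest adjusted p 0.259) and in 10 of 20 with vehicle (highest adjusted p 0.273), by edgeR or DESeq2. With MDMA it was lost without MDMA library 1 or 2, psilocybin library 3 or any 1 unstressed library. Between stressed groups, which share an annotation, the log2 difference was 1.36 ± 0.44 SE for psilocybin against vehicle (edgeR adjusted p = 0.146) and 0.82 ± 0.43 SE for psilocybin against MDMA (edgeR adjusted p = 1).

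In the remaining chaperone lists none passed in any of the 6 comparisons. These were 11 Hsp90 co-chaperones (median log2 difference for psilocybin against unstressed 0.13), 6 of 7 small heat shock proteins that passed the low-count filter (0.89), 8 subunits of the cytosolic chaperonin TRiC (0.39), 8 mitochondrial chaperones and proteases (0.70) and 14 chaperones of the endoplasmic reticulum (−0.086), against 0.71 for the 10 heat shock genes and 0.016 over all genes. For vehicle against unstressed the medians were 0.12, −0.0088, 0.37, 0.12 and −0.048, in the same order of lists, against 0.52 for the 10 genes and −0.18 over all genes. For MDMA against unstressed they were 0.37, −0.076, 0.29, 0.32 and −0.35, against 0.61 for the 10 genes and 0.038 over all genes. Hspa9, the mitochondrial Hsp70, averaged 235 ± 12.6 CPM with psilocybin, 266 ± 47.1 CPM with MDMA, 199 ± 122 CPM with vehicle and 210 ± 38.4 CPM in unstressed libraries (SD, n = 3 each). Hspb8, another small heat shock protein, with nearly the same exons in both annotations, was at 164, 86.5 and 146 CPM with psilocybin, 124, 76.6 and 118 CPM with MDMA, 62.6, 71.8 and 6.14 CPM with vehicle and 48.5, 44.9 and 53.7 CPM in unstressed libraries.

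Chaperones of the endoplasmic reticulum and immediate early genes also respond to cell stress. Hspa5, the Hsp70 protein of the endoplasmic reticulum known as BiP, averaged 1900 ± 570 CPM with psilocybin, 1740 ± 186 CPM with MDMA, 2440 ± 1620 CPM with vehicle and 4180 ± 1300 CPM in unstressed libraries (SD, n = 3 each), with log2 differences from unstressed of −1.12 ± 0.45, −1.32 ± 0.45 and −0.65 ± 0.45 (SE; edgeR adjusted p = 0.651, 0.543 and 0.49). Of 18 immediate early genes, which are switched on within minutes of a stimulus or of tissue handling, 1 rose and 1 fell in vehicle against unstressed and none passed in the other 5 comparisons. The list medians were −0.079 for psilocybin, 0.33 for MDMA and 0.26 for vehicle against unstressed. Atf3 rose, at 285, 264 and 268 CPM with vehicle against 62.7, 96.3 and 104 CPM unstressed (log2 difference 1.83 ± 0.43 SE, edgeR adjusted p = 0.0415). Egr3 fell, at 0, 2.48 and 0.512 CPM with vehicle against 42.4, 20 and 27.5 CPM unstressed (edgeR adjusted p = 0.0441). Vehicle libraries held 3 Egr3 counts in all, and the ratio of unstressed over vehicle was 61.1 (95% counting interval 20.7 to 298). The call held in 7 of 21 alternatives for Atf3 (adjusted p 0.000113 to 0.334) and in 5 of 20 for Egr3 (adjusted p 8.74e-05 to 0.498), by edgeR or DESeq2, and leaving out any 1 of the 3 psilocybin or 3 unstressed libraries ended both. The summed immediate early level was 6960–8780 CPM with psilocybin, 5990–8270 CPM with MDMA, 4500–11600 CPM with vehicle and 5770–9000 CPM in unstressed libraries, and vehicle library 3, lowest for 5 of the 10 chaperones, was also the lowest here.

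**Figure D4:**
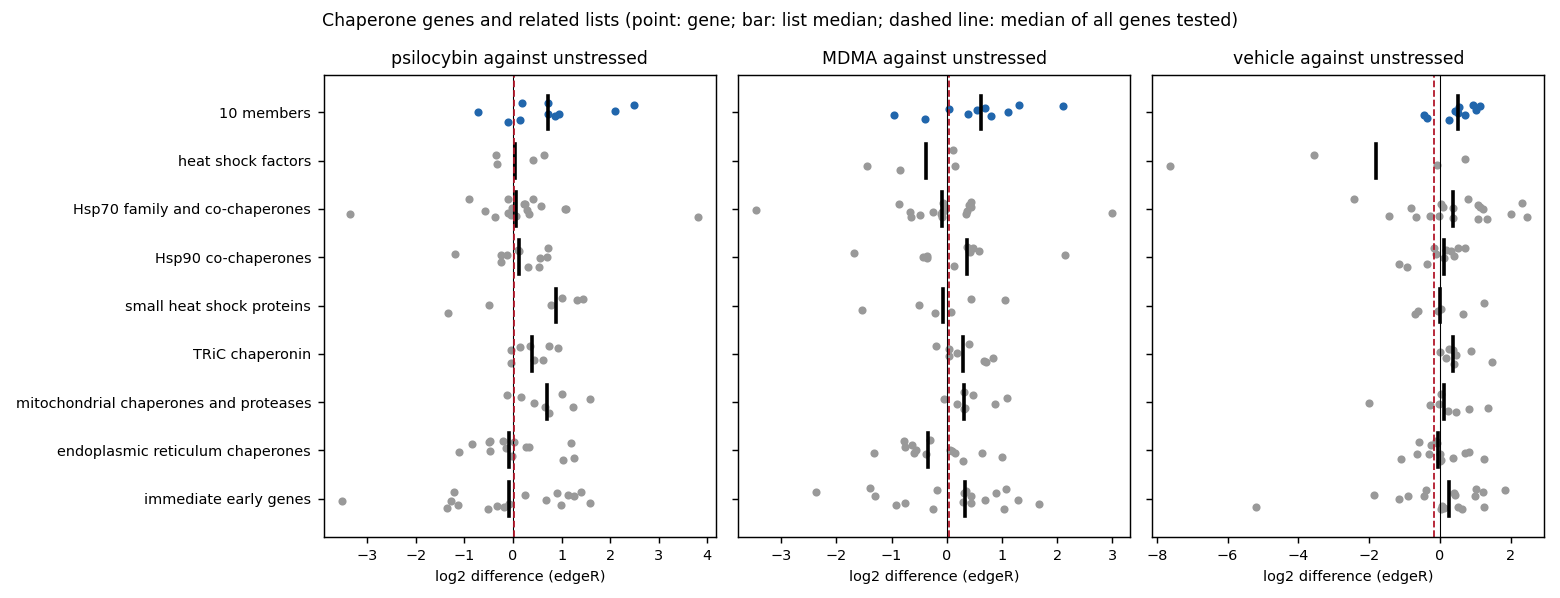
Log2 difference (x axis, edgeR) of single genes in the 10-gene set (blue) and the 8 related lists (grey) for psilocybin, MDMA and vehicle, each against unstressed; black bars are list medians and the dashed line is the median of all genes tested. The 10-gene medians lie at 0.71, 0.61 and 0.52, and the isolated point at the right of the Hsp70 family is St13 in the psilocybin and MDMA panels.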

How the data were processed

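Gene counts of 12 libraries were used, 3 per group; groups and replicate numbers come from the sample titles. The deposited values are raw read counts for each gene. Per the submitters' processing notes, the tools were STAR 2.7.5c, featureCounts 2.0.1, fastp 0.23.2, edgeR 3.42.4, MultiQC 1.11 and FastQC 0.11.9, with mm10. Counts of the unstressed libraries come from featureCounts 2.0.1 over RefSeq exons, per the file headers, with no strand or multi-mapping option. The counting command of the stressed libraries, which carry Ensembl identifiers, is not given in the sources used here. In a table of the whole series, 3 columns belong to no sample used here and were not used.

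Of 55401 Ensembl identifiers, 55141 had a symbol in GENCODE M21. They were joined to 35976 RefSeq genes by symbol (26663) or by exon position (925, Jaccard index of at least 0.5), giving 27588 genes with 94.8–99.1% of each library's counts. Exons were called nearly the same at a Jaccard index of at least 0.9 and own lengths within 1.1 times (7265 genes). CPM used each file's own total. The main test was edgeR 4.0.16 (glmQLFit, glmQLFTest, TMM, filterByExpr) over all 12 libraries in R 4.3.3, adjusted over 13945 genes at a threshold of 0.05; the 95% intervals are the log2 difference ± its SE times the t quantile at 14.4 degrees of freedom. Alternatives were DESeq2 1.42.0, other scalings and filters, fewer libraries, a replicate block, nearly identical exons, the stressed libraries alone, and Hspa1a and Hspa1b summed.

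The likeness profile used log2(TMM-scaled CPM + 1) of genes with a mean of at least 5 CPM. The members and lists were chosen with earlier results of these data known. All 10 members are named; of each list, up to 3 genes with the smallest p among those past the threshold and otherwise the 2 with the highest mean CPM were eligible. Deviations of same-numbered psilocybin and vehicle libraries from their group means had correlations of 0.112, 0.213 and 0.115 across genes. For psilocybin and MDMA they were 0.225, 0.0237 and 0.214, and for vehicle and unstressed 0.02, 0.131 and 0.0953. Each other comparison held a negative value. Libraries with different numbers were not compared, so these values cannot show whether the numbers pair samples. The labels name no pairs. The main fit and all printed values carry no pair term, and the replicate block was an alternative. CPM per kilobase used the exon bases of each file's own annotation (bases of the gene alone for list genes).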

Additional observations from a re-analysis of the deposited data

How the results depend on the processing

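Over alternatives that left out 1 library, 679 of 720 values of single genes kept their direction and their side of the threshold, 39 turned sign and 2 became calls; over the other alternatives 451 of 477 kept both, 21 turned sign and 5 became calls. All values that turned sign belong to differences that no test called, and their cause was not tested. The number of the 10 genes past the threshold was 0 throughout the main tests. With DESeq2 it was 1 for vehicle against unstressed (Hspd1), 1 for MDMA against vehicle (Hsph1) and 1 for any difference among the 4 groups (Hspd1). Fitted on the 2 groups compared alone it was 3 for psilocybin against unstressed, where 1379 of 13371 genes tested were called. The 3 were Hspb1, Hspe1 and Hspd1, with adjusted p = 0.00871, 0.0307 and 0.035 by edgeR. Each had a highest adjusted p of 1 over its alternatives. Leaving out vehicle libraries 1 and 3 leaves 1 vehicle library, so no count of calls is given for that fit. With 1 library left out, the number of the 10 genes called ran from 0 to 1 for vehicle against unstressed and for psilocybin against unstressed. In both it was vehicle library 3 whose removal gave the call, where 970 and 118 of 14516 genes tested were called. The replicate block left 0 of the 10 genes called in every comparison and changed no call. Whether the numbers pair samples in any comparison was not tested. With the block, the count over all genes was 10 in place of 468 for vehicle against unstressed. It was 0 in place of 2 for psilocybin against vehicle, 0 in place of 94 for MDMA against vehicle and 0 in both for psilocybin against MDMA. For psilocybin and for MDMA against unstressed it was 5 in place of 11. Of the called list genes, St13 kept its call most often, and for vehicle against unstressed it was lost on the 2 groups alone, under the block and with single libraries of MDMA (1 or 3), psilocybin (any) or unstressed (any) left out. Hsf4, Atf3 and Egr3 were lost there too, and without vehicle library 1.

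Counts over all genes moved more. DESeq2 called 1749 for vehicle against unstressed, 1061 for psilocybin against vehicle, 1337 for MDMA against vehicle, 244 for psilocybin against unstressed, 218 for MDMA against unstressed and 1422 for any difference (60 by edgeR). The 2 groups alone gave 0 for vehicle against unstressed, 0 for both drugs against vehicle, 1379 for psilocybin against unstressed and 237 for MDMA against unstressed. DESeq2 size factors gave 255 for vehicle against unstressed, 0 for psilocybin against vehicle and 3 for MDMA against vehicle. No filter on low counts gave 288 for vehicle against unstressed, 7 for psilocybin against vehicle, 47 for psilocybin against unstressed, 59 for MDMA against unstressed and 275 for any difference. With 1 library left out the counts ran from 8 to 3666 for vehicle against unstressed, 0 to 3538 for psilocybin against vehicle, 0 to 3616 for MDMA against vehicle, 3 to 118 for psilocybin against unstressed, 2 to 97 for MDMA against unstressed and 9 to 2476 for any difference.

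The log2 differences that turned sign were these. For psilocybin against MDMA, Hsp90aa1 was −0.0057 with DESeq2 size factors, −0.0055 with DESeq2, −0.0022 with library totals alone, −0.085 on the 2 groups alone and −0.064 on the stressed libraries alone, and Hsp90ab1 was −0.0035 on the 2 groups alone. With library totals alone Hsp90ab1 was 0.046 for MDMA against vehicle and 0.086 for psilocybin against vehicle, Hspa8 was 0.046 for MDMA against vehicle and Hspd1 was 0.035 for psilocybin against vehicle. Hspa8 for psilocybin against vehicle was −0.20 with DESeq2 size factors and −0.20 with DESeq2, −0.051 with no filter, −0.077 on the 2 groups alone and −0.064 on the stressed libraries alone. Without vehicle libraries 1 and 3, which leaves 1 vehicle library and the spread of the other groups, Hsp90ab1 was 0.57 for psilocybin against vehicle, 0.47 for MDMA against vehicle and −0.41 for vehicle against unstressed, and Hspa1a was −0.22, −0.0067 and 0.43 in the same comparisons.

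With 1 library left out, Hsp90aa1 ran from −0.52 to 0.80 for MDMA against vehicle, −0.41 to 0.65 for psilocybin against MDMA, −0.10 to 0.83 for psilocybin against vehicle and −0.11 to 0.83 for vehicle against unstressed. Hsp90ab1 ran from −0.23 to 0.43 for MDMA against unstressed, −0.53 to 0.13 for MDMA against vehicle, −0.31 to 0.36 for psilocybin against MDMA, −0.15 to 0.30 for psilocybin against unstressed, −0.41 to 0.23 for psilocybin against vehicle and −0.071 to 0.53 for vehicle against unstressed. Hspa1a ran from −0.29 to 0.37 for psilocybin against unstressed, −0.014 to 1.14 for psilocybin against vehicle and −0.97 to 0.22 for vehicle against unstressed. Hspa1b ran from −1.06 to 0.14 and Hspa8 from −0.013 to 0.29 for psilocybin against MDMA. Hspa8 ran from −0.071 to 0.13 for psilocybin against vehicle, and Hspe1 from −0.27 to 0.72 for MDMA against vehicle. Against unstressed, Hspa1b, Hspa8, Hspb1, Hspd1 and Hspe1 stayed positive and Dnajb1 negative throughout. Depth limits Hspa1b (3 to 36 counts) and vehicle library 2 (807725 counts).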
